A study of Mus musculus with 42 samples.

Results

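The primitive blood genes described here are 9 genes of the red cell lineage, *Hbb-bh1*, *Hbb-y*, *Hba-x*, *Hba-a1*, *Hba-a2*, *Gata1*, *Klf1*, *Alas2* and *Epor*, chosen by name from the 56953 genes of the count table. All 9 passed the filter on low counts, as did 26335 genes in all. The counts came from bulk RNA sequencing of the microdissected heart field of 21 mouse embryos at E8.5i, each cut along the midline into a left and a right piece that gave 1 library each, so that 42 libraries were compared. Of the embryos, 5 were wild types (*Ccdc40*+/+, 4 males and 1 female), 11 were *Ccdc40*lnks/lnks mutants with rightward looping of the heart tube (6 males and 5 females), and 5 were *Ccdc40*lnks/lnks mutants with inverted looping (3 males and 2 females). *Ccdc40* encodes a protein required for the beating of motile cilia, which bias left-right patterning at the node. The mutants are homozygous for the lnks allele, and looping was the sign of laterality used to group them. The study divided the rightward mutants further by their laterality, a division not used here, so that their values pool embryos of more than 1 kind of laterality. The heart tube had been dissected away before the cut, as had the head, the back and trunk tissue caudal to the second somite. The pieces thus held the heart field with the tissues beside it, and any blood in the remaining vessels entered the libraries. In such bulk samples, fewer blood cells and less RNA per blood cell cannot be told apart.

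Primitive red cells are the first blood cells of the embryo. They form in the blood islands of the yolk sac, still carry a nucleus when they enter the vessels, and are moved through the embryo once the heart tube beats. Their haemoglobin pairs embryonic chains of the beta type, encoded by *Hbb-bh1* and *Hbb-y*, with the embryonic alpha type chain encoded by *Hba-x* and the adult alpha chains encoded by *Hba-a1* and *Hba-a2*. GATA1 and KLF1 are transcription factors that switch on globin, haem and membrane genes, ALAS2 begins haem synthesis in red cells, and EPOR is the receptor of erythropoietin, which keeps red cell progenitors alive. The adult beta chains, *Hbb-bs* and *Hbb-bt*, mark red cells of the later, definitive lineage and the blood of the mother.

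In the mouse genome GRCm39, *Hbb-bh1* (chr7:103490844-103492371) and *Hbb-y* (chr7:103500956-103502423) lie side by side on the minus strand of the beta-globin cluster. *Hba-x* (chr11:32226400-32228116), *Hba-a1* (chr11:32233186-32234504) and *Hba-a2* (chr11:32246168-32247320) follow each other on the plus strand of the alpha-globin cluster. The other genes are single, *Gata1* on the minus strand of chrX:7825499-7844310, *Klf1* on the plus strand of chr8:85628557-85631934, *Alas2* on the plus strand of chrX:149330371-149353634 and *Epor* on the minus strand of chr9:21870192-21874879. Since the genes moved together across embryos, the 200 bases upstream of the start of each canonical transcript were read from the genome and searched on both strands for AGATAA or TGATAA, the letters that GATA factors favour, and for CCNCNCCC, letters of the CACCC type that KLF factors favour. The windows shown are those that hold a match and no annotated exon, each written 5′ to 3′ on the strand of its gene, with matches on either strand in capitals.
Hbb-bh1: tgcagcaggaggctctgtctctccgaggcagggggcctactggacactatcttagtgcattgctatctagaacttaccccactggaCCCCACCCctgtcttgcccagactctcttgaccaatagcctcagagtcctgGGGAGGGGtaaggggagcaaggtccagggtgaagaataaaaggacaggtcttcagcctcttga
Hbb-y: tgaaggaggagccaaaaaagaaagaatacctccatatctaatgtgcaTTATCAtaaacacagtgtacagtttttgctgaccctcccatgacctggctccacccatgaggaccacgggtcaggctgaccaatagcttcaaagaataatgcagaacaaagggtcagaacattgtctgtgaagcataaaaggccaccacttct
Klf1: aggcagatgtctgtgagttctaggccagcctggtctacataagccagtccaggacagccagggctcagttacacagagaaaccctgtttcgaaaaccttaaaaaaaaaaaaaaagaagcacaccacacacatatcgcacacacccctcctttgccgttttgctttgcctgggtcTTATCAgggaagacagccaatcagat
Alas2: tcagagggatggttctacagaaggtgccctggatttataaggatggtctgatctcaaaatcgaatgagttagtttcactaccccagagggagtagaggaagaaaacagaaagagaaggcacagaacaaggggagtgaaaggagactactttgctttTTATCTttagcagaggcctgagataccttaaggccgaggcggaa
These windows span chr7:103492372-103492571, chr7:103502424-103502623, chr8:85628357-85628556 and chrX:149330171-149330370. The window of *Hbb-bh1* held CCNCNCCC once on each strand and no match to the GATA letters, whereas those of *Hbb-y*, *Klf1* and *Alas2* each held 1 match to the GATA letters on the opposite strand and no CCNCNCCC. Of all 9 windows, 6 held the GATA letters, beside 12.5% of 21757 windows of the same length, 4 held CCNCNCCC, beside 45.6%, and 2, those of *Hba-a1* and *Epor*, held both, beside 3.20%. The windows of *Hba-a1*, *Hba-a2*, *Gata1* and *Epor* overlapped annotated exons of other transcripts of the same gene. *Hba-x* held neither motif. A match describes the letters only and was not tested for binding.

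The 42 libraries held 36073684 to 62970327 counts each, their median being 43458644, and counts of all globin genes made up between 0.0308% and 0.206% of a library, with a median of 0.110%. The lowest count of any member in any library was 69, for *Gata1*. The genotype was checked on *Ccdc40* itself, which ranged from 15.2 to 26.5 CPM (counts scaled by TMM to a common library size) in the 10 wild-type libraries and from 8.83 to 14.8 in the 32 mutant libraries, without overlap. The summed level of 12 markers of heart field progenitors lay between 449.6 and 1195 CPM. It was lowest on the right of the rightward mutant 2_2, where *Tbx5* had 0.352 CPM, *Hand1* 1.56 CPM and *Wnt2* 3.02 CPM. On its left, *Tbx5* had 5.78 CPM and *Wnt2* 27.7 CPM, against at least 26.4 and 80.8 CPM in the other embryos. *Hand1* had 29.2 CPM on the left, within their range. Some other genes of the list were not low on the right of 2_2. There *Isl1*, *Fgf8* and *Fgf10* had 100.3, 46.3 and 32.3 CPM, against medians of 89.4, 29.7 and 22.7 CPM in the other embryos. Both libraries of 2_2 thus stood apart in some heart field genes, but not in all. Markers of neighbouring tissues varied far more between libraries. Those of heart tube muscle summed to between 403.2 and 6061 CPM and those of yolk sac visceral endoderm to between 29.7 and 1658 CPM. By contrast, 12 endothelial markers summed to between 535.0 and 706.0 CPM. Genes of megakaryocytes and of macrophages had low sums, of at most 15.0 and 47.2 CPM, and *Ptprc*, the pan-leukocyte marker, was at 0 in 16 libraries.

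Embryonic globins were the most abundant members. Per kilobase of transcript, median levels over the 42 libraries were 680 CPM per kb for *Hbb-bh1*, 466 for *Hba-x*, 265 for *Hbb-y*, 99.6 for *Hba-a1* and 31.0 for *Hba-a2*. The erythroid regulators and enzymes were much lower, at 9.47 CPM per kb for *Klf1*, 6.62 for *Alas2*, 3.51 for *Gata1* and 3.38 for *Epor*. The ranges of each pair of neighbours in this order overlapped, so that *Gata1*, for example, ranged from 0.953 to 7.69 and *Epor* from 1.71 to 6.49 CPM per kb. The lowest level of *Hbb-y*, 47.4 CPM per kb, was above the highest level of *Klf1*, 20.4 CPM per kb. The transcripts of *Hba-a1* and *Hba-a2* shared 646 identical bases, out of 647 bases of *Hba-a2*, so that reads could be assigned to either copy and the balance between both copies is uncertain. The authors removed duplicate reads, and the effect of this step on abundant globin transcripts was not tested.

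**Figure D1:**
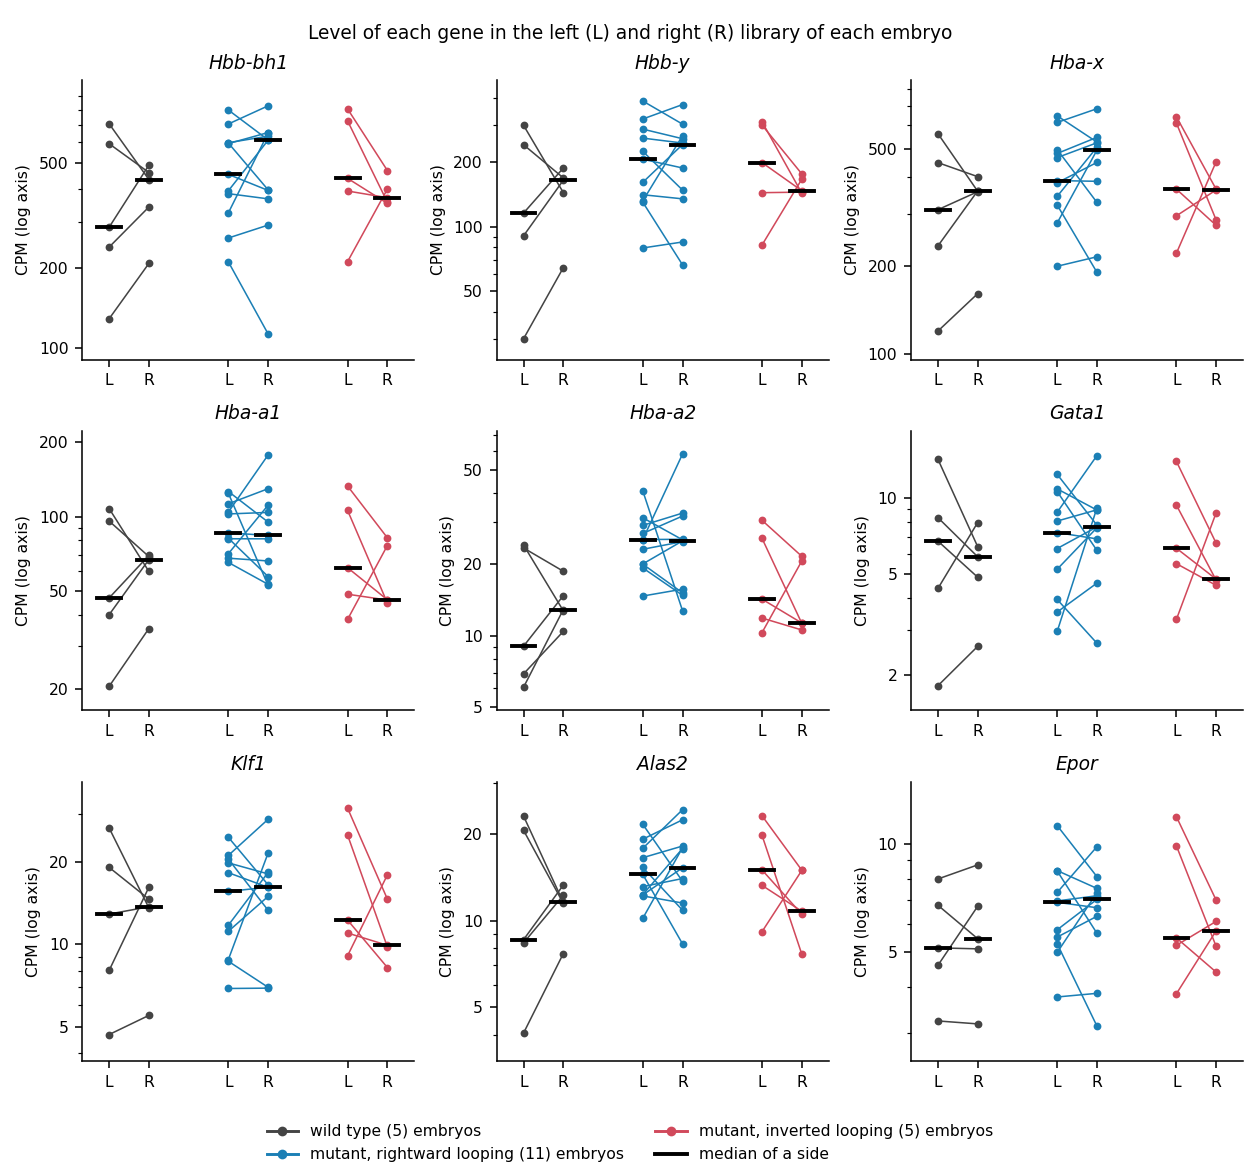
Level of each of the 9 genes (CPM on a log axis) in the left (L) and right (R) library of each embryo, joined by a line, with black bars for the median of each side. Lines cross in both directions in all 3 groups and the groups overlap for every gene, and *Hbb-bh1* spans 113 to 826 CPM.

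*Hbb-bh1*, the main embryonic chain of the beta type, varied 7.33-fold between libraries. In wild types, its left levels were 129, 241, 286, 594 and 706 CPM and its right levels in the same embryos were 209, 342, 493, 462 and 434 CPM. The left side was thus the more variable, and right levels lay within the range of left levels. In mutants with inverted looping, left levels were 212, 393, 439, 724 and 804 CPM and right levels in the same embryos were 399, 371, 353, 356 and 470 CPM. Here too the right levels were close to each other and the left levels spread around them. In mutants with rightward looping, left levels ranged from 212 to 797 with a median of 454 CPM, and right levels from 113 to 826 with a median of 612 CPM. *Hbb-y*, the other embryonic chain of the beta type, ranged 12.9-fold, from 29.99 CPM on the left of the wild-type embryo 22_4 to 386 CPM on the left of the rightward mutant 1_6. *Hba-x*, the embryonic chain of the alpha type, ranged from 120 to 684 CPM between the left of the embryo 22_4 and the right of the rightward mutant 18_1.

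The adult alpha chains had the largest differences between wild types and rightward mutants, which did not pass the tests given below. *Hba-a2* levels on the left of wild types were 6.07, 6.91, 9.03, 23.4 and 24.1 CPM, and those on the right of the same embryos were 12.9, 10.4, 14.7, 18.7 and 12.7 CPM. On the left of inverted mutants, *Hba-a2* had 10.3, 11.9, 14.3, 25.7 and 30.6 CPM, and on the right of the same embryos 20.6, 10.6, 11.3, 11.3 and 21.6 CPM. The wild types and the inverted mutants covered much the same range. In rightward mutants, it ranged from 14.7 to 40.7 CPM on the left, with a median of 25.4, and from 12.7 to 58.2 CPM on the right, with a median of 25.1. The medians of rightward mutants thus lay above those of both other groups, but the ranges overlapped. On the right, *Hba-a1* had the same order of groups as *Hba-a2*, with medians of 66.9 CPM in wild types, 83.8 CPM in rightward mutants and 46.0 CPM in inverted mutants, and its highest level, 178 CPM, like that of *Hba-a2*, was on the right of the rightward mutant 19_4.

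Among the regulators, *Klf1* had left levels of 4.67, 8.02, 12.9, 19.1 and 26.6 CPM in wild types, and right levels in the same embryos of 5.49, 16.2, 13.7, 14.6 and 13.6 CPM. Its left levels in inverted mutants were 9.08, 10.99, 12.3, 25.1 and 31.4 CPM, with right levels in the same embryos of 17.9, 9.91, 8.22, 9.78 and 14.6 CPM. In 4 of the 5 inverted mutants the right side was the lower. In rightward mutants *Klf1* ranged from 6.89 to 24.6 CPM on the left and from 6.91 to 28.7 CPM on the right. *Gata1* ranged from 1.81 to 14.6 CPM over all libraries, *Alas2* from 4.07 to 24.2 CPM and *Epor*, the least variable member, from 3.13 to 11.9 CPM, which is a 3.80-fold range. The left of the wild-type embryo 22_4 was the lowest library for *Hbb-y*, *Hba-x*, *Hba-a1*, *Gata1*, *Klf1* and *Alas2*, and the right of the rightward mutant 2_2 for *Hbb-bh1* and *Epor*.

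The comparison of right with left asked whether blood genes are asymmetric in the heart field, and whether this depends on the direction of looping. The direction was not shared by the embryos of any group. In wild types, all 9 genes were higher on the right in the embryo 8_1 and on the left in the embryo 17_7, and the median log2 ratio of right over left per embryo ranged from -0.92 in the embryo 7_1 to 0.78 in the embryo 8_1. In rightward mutants, all 9 genes were higher on the right in 2 embryos and on the left in 3, and medians ranged from -0.80 to 0.82. In inverted mutants, all 9 were higher on the left in 3 of 5 embryos, with medians of -1.11, -0.76 and -0.41, all 9 were higher on the right in the embryo 10_3, with a median of 0.99, and the embryo 32_2 was mixed, with a median of -0.08. The genes of an embryo thus shared a direction in 11 of the 21 embryos, which went both ways in each group.

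**Figure D2:**
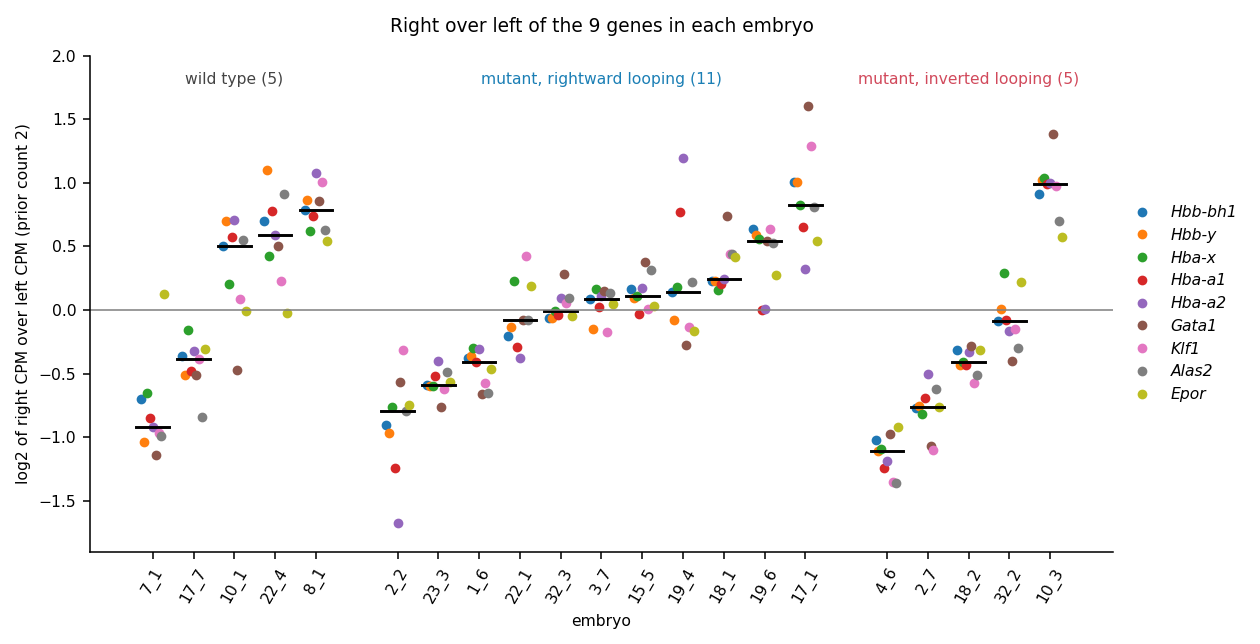
Log2 ratio of right over left CPM (prior count 2) of each gene, as coloured points, in each of the 21 embryos, ordered by their median (black bars) within the 3 groups. Medians spread from -1.11 to 0.99 and lie on both sides of 0 in each group, and the points of an embryo spread widely in some, from -0.28 to 1.19 in 19_4 and from -1.67 to -0.31 in 2_2.

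None of the 9 genes passed the test of right against left in any group. In wild types, log2 fold changes of right over left ranged from -0.18 for *Gata1* to 0.22 for *Hbb-y*, in rightward mutants from -0.08 for *Hba-a1* to 0.11 for *Gata1*, and in inverted mutants from -0.45 for *Klf1* to -0.20 for *Hba-x*. The 9 values were negative in inverted mutants and had mixed signs in the other groups. In inverted mutants, *Klf1* had a log2 fold change of -0.45 ± 0.31 (SE, n = 5 embryos, with an adjusted p by edgeR of 0.559) and *Alas2* of -0.41 ± 0.25 (adjusted p by edgeR = 0.499). *Hbb-bh1* had -0.26 ± 0.24 in inverted mutants, 0.01 ± 0.14 in rightward mutants and 0.18 ± 0.23 in wild types (adjusted p by edgeR = 0.697, 1.00 and 1.00). The exact sign-flip test over embryos, two-sided, gave p = 0.312 for *Klf1* and for *Alas2* in inverted mutants, the lowest of 27 such tests, and its smallest possible p with 5 embryos is 0.0625. Across all genes tested, 0% passed in wild types (0 of 23182 by edgeR, with 639 at an unadjusted p under 0.05 and 20 called by DESeq2), 0.0263% in rightward mutants (6 of 22795, and 32 called by DESeq2) and 2.04% in inverted mutants (468 of 22960, and 1755 called by DESeq2). Without the embryo 32_2, 18_2, 4_6, 2_7 or 10_3, the number in inverted mutants was 138, 181, 222, 393 or 446. No member had an unadjusted p under 0.05 in these comparisons, and DESeq2 called none either.

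The values of inverted mutants rested in part on the embryo 10_3, the only one of them with all 9 genes higher on the right. Without it, log2 fold changes of right over left ranged from -0.80 to -0.45 with a median of -0.57, against a median of -0.26 with all embryos, and the lowest adjusted p by edgeR was 0.111. Without the embryo 4_6, the median was -0.06, and *Hba-x* and *Hba-a2* had values of 0.03 and 0.00. The embryo 10_3 also had the largest excess of visceral endoderm markers on its right side, with a log2 ratio of summed CPM of 4.55. In the other inverted mutants, 2_7, 4_6, 18_2 and 32_2, this ratio was -0.76, -1.22, 1.11 and 0.72. The summed blood genes had ratios of -0.78, -1.08, -0.38 and 0.06 in the same embryos, so that both did not always share a direction. Summed markers of endothelium and of heart field progenitors were higher on the right in 5 of 5 inverted mutants, by 0.06 to 0.26 and by 0.27 to 0.66 on the log2 scale, and 4 of 12 heart field genes and none of 12 endothelial genes passed the test of edgeR (4 of the endothelial genes had an unadjusted p under 0.05). Heart tube muscle had the same direction. Its summed markers were higher on the right in 5 of 5 inverted mutants, by 0.69 to 1.42 on the log2 scale, and 10 of its 12 genes passed the test, including *Ttn* (1.27 ± 0.08, adjusted p by edgeR = 0.0025) and *Actc1* (1.12 ± 0.08, adjusted p by edgeR = 0.0026), which encode titin and cardiac actin. Whether these tissues have a part in the levels of the blood genes was not tested.

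Asymmetry was then compared between groups. The difference of asymmetry, inverted minus rightward mutants, was negative for all 9 genes and ranged from -0.55 ± 0.35 for *Klf1* (adjusted p by edgeR = 0.627) to -0.20 ± 0.37 for *Hba-a2* (adjusted p by edgeR = 0.902). Between rightward mutants and wild types, it ranged from -0.26 for *Hba-a2* to 0.29 for *Gata1* (adjusted p by edgeR = 1.00). None of the 9 genes passed either test or had an unadjusted p under 0.05, and DESeq2 called none. Across all genes, 0.311% passed for inverted against rightward mutants (82 of 26335, with 456 called by DESeq2 and 18 to 192 by edgeR with each embryo left out) and 0% for rightward mutants against wild types (0 of 26335 by edgeR, with 800 at an unadjusted p under 0.05 and 0 called by DESeq2). The exact permutation test of looping groups over embryos, two-sided, had its lowest p of 18 tests for *Alas2*, whose mean log2 ratio was -0.42 in inverted and 0.05 in rightward mutants (p = 0.163).

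**Figure D3:**
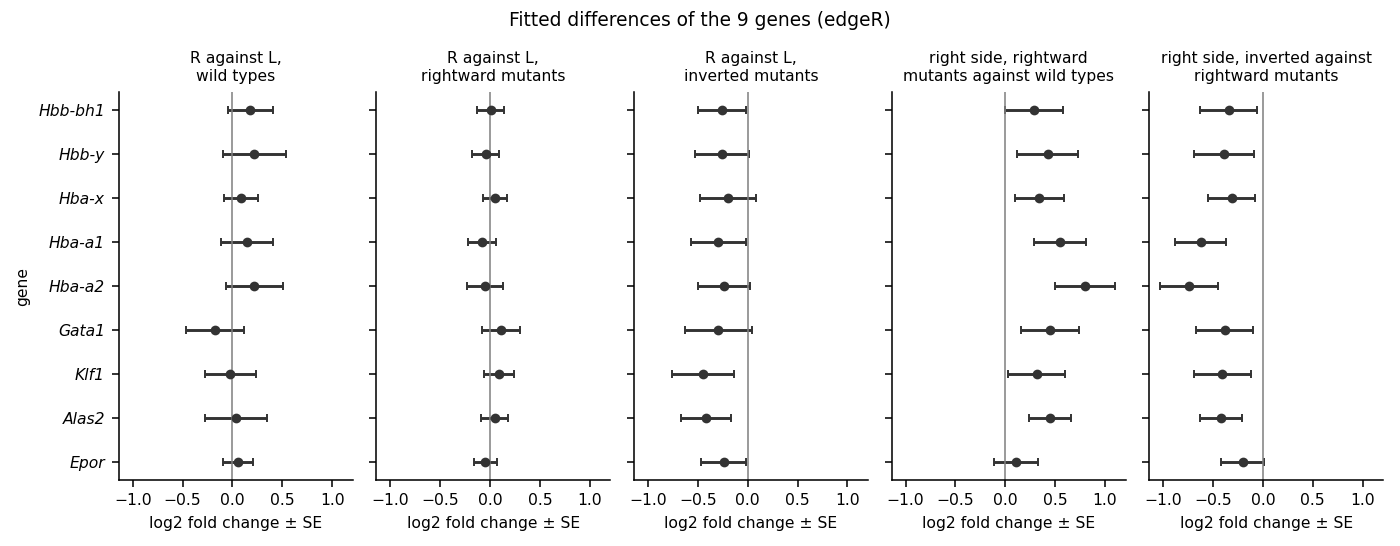
Log2 fold change of each gene (points) with its SE (bars), as fitted by edgeR, for right (R) against left (L) in the 3 groups and for the right side between groups. Values lie below 0 for inverted mutants and above 0 for the right side of rightward mutants against wild types, and none of the 9 genes passed the threshold in any panel.

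The level of each side was compared between groups with sex as a covariate. On the right side, all 9 genes had higher values in rightward mutants than in wild types, from 0.10 ± 0.22 for *Epor* to 0.80 ± 0.30 for *Hba-a2* on the log2 scale, and lower values in inverted than in rightward mutants, from -0.20 ± 0.22 for *Epor* to -0.74 ± 0.29 for *Hba-a2*. Both comparisons share the 11 libraries of rightward mutants. No gene passed (adjusted p by edgeR = 1.00 for each), while 3 and 2 of the 9 had an unadjusted p under 0.05, namely *Hba-a1*, *Hba-a2* and *Alas2*, and *Hba-a1* and *Hba-a2*. Across all genes, 0.0121% passed for rightward mutants against wild types (3 of 24859) and 0.00805% for inverted against rightward mutants (2 of 24859), while 816 and 1060 genes had an unadjusted p under 0.05. On the left side, the largest difference was again that of *Hba-a2*, higher by 0.88 ± 0.34 in rightward mutants than in wild types (adjusted p by edgeR = 0.978, unadjusted p = 0.018), and no other gene had an unadjusted p under 0.05. For left levels, 0.0242% of all genes passed for rightward mutants against wild types (6 of 24838) and 0.0121% for inverted against rightward mutants (3 of 24838), while 1247 and 1960 genes had an unadjusted p under 0.05. DESeq2 called none of the 9 genes in these comparisons and, of all genes, 20 and 104 on the left and 6 and 18 on the right. Other markers also differed in value on the right side without passing the test. The other globins, with the adult beta chains, were higher in rightward mutants than in wild types for 4 of 4 tested genes (median 0.92). In inverted against rightward mutants, 4 of 4 were lower (median -1.04). Of these, 1 and 2 had an unadjusted p under 0.05. On the left none passed either, and 3 of 4 were higher and 3 of 4 lower, with medians of 0.91 and -0.74. Macrophage and myeloid genes had higher values in rightward mutants than in wild types for 8 of 8 tested genes, with a median log2 fold change of 0.78, and lower values in inverted than in rightward mutants for 7 of 8, with a median of -0.44. These values rested in part on the rightward mutant 15_5, without which 6 of 8 were higher, with a median of 0.32, and 5 of 8 lower, with a median of -0.09. The medians of the 9 blood genes without it were 0.44 and -0.44, against 0.42 and -0.39 with all embryos. Visceral endoderm genes had higher values in inverted than in rightward mutants for 12 of 12 genes, with a median of 0.67, as did heart tube muscle genes for 11 of 12, with a median of 0.53. The part of these cells in the levels of the blood genes was not tested.

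None of the 9 genes passed the test of females against males. Log2 fold changes of females against males ranged from -0.10 for *Hba-a2* to 0.41 for *Gata1* on the left (lowest adjusted p by edgeR = 0.822) and from 0.15 for *Klf1* to 0.36 for *Hbb-bh1* on the right (lowest adjusted p by edgeR = 0.8999), with no unadjusted p under 0.05 and no call by DESeq2. Across all genes, 0.0564% passed on the left (14 of 24838) and 0.0523% on the right (13 of 24859).

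The size of level and ratio was correlated between the genes. Over the 21 embryos, the mean log2 level of both sides correlated with that of *Hbb-bh1* at r = 0.93 for *Hbb-y* and *Gata1*, 0.92 for *Epor*, 0.91 for *Hba-x*, 0.90 for *Klf1* and 0.84 for *Alas2*, with Spearman's rho of 0.97, 0.89, 0.91, 0.96, 0.90 and 0.85 (permutation p = 1e-05 for each, the smallest that the permutations can give, with an adjusted p over 8 relations of 1.3e-05). The adult alpha chains followed less closely, with r = 0.68 and rho = 0.71 for *Hba-a1* (permutation p = 0.0007 and 0.00036, adjusted 0.0008 and 0.00041) and r = 0.51 and rho = 0.59 for *Hba-a2* (permutation p = 0.018 and 0.0054, adjusted 0.018 and 0.0054). Removal of group means gave r of 0.70 and 0.50 for these genes, and omission of the 2 embryos farthest from the median of *Hbb-bh1* gave 0.75 and 0.58. Within the 11 rightward mutants alone, r was 0.51 for *Hba-a1* and 0.27 for *Hba-a2*. The ratio of right over left was shared more evenly, with r between 0.83 for *Epor* and 0.98 for *Hbb-y*, rho between 0.80 and 0.97, and an adjusted permutation p of 1.1e-05 for each gene but *Epor*, whose adjusted permutation p was 3e-05. Without the 2 embryos farthest from the median ratio, r lay between 0.78 and 0.97. Over the 36 pairs of members, r ranged from 0.49 to 0.98 for levels and from 0.64 to 0.98 for ratios.

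The spread between embryos was itself large. The SD of the log2 level was between 0.41 for *Epor* and 0.70 for *Hbb-y*, against a median of 0.15 over 15246 genes with a mean of at least 1 CPM, and exceeded that of 90.4% to 96.8% of them. The SD of the log2 ratio of right over left was between 0.44 and 0.78, against a median of 0.24.

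Relative to *Hbb-bh1*, the adult alpha chains were high in 3 rightward mutants, 2_2, 15_5 and 19_4. In these, the adult beta chains *Hbb-bs* and *Hbb-bt* were high as well. Their share of all beta type CPM per kb was 26.2% and 17.7% on the left and right of 2_2, 20.3% and 18.6% in 15_5, and 5.004% and 15.2% in 19_4, against a range from 0.636% to 8.23% and a median of 1.96% in the 36 other libraries, so that only the left of 19_4 lay within the range of the others. *Hbb-bs* reached 116 CPM on the left of 2_2 and 152 CPM on the right of 19_4, with 35.8 and 41.6 CPM on their other sides. In 15_5 it had 83.1 and 81.9 CPM on the left and right, and in the other embryos at most 46.2 CPM. The adult share of alpha type CPM per kb was also highest there, up to 39.4% on the left of 15_5, against at most 26.7% in the other embryos. The left of 19_4, with 23.1%, again lay within the range of the others. *Hbb-bh1* was low in 2_2, at 212 and 113 CPM, and in 15_5, at 261 and 292 CPM, but not in 19_4, at 594 and 655 CPM. Without these 3 embryos, r with *Hbb-bh1* was 0.93 instead of 0.68 for *Hba-a1* and 0.85 instead of 0.51 for *Hba-a2*. The embryos were chosen after seeing that their adult globins were high, so that a higher r follows from the choice and is given as a description. In the same fits, the difference of *Hba-a2* between rightward mutants and wild types was 0.67 on the left and 0.66 on the right, and no member passed any test.

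**Figure D4:**
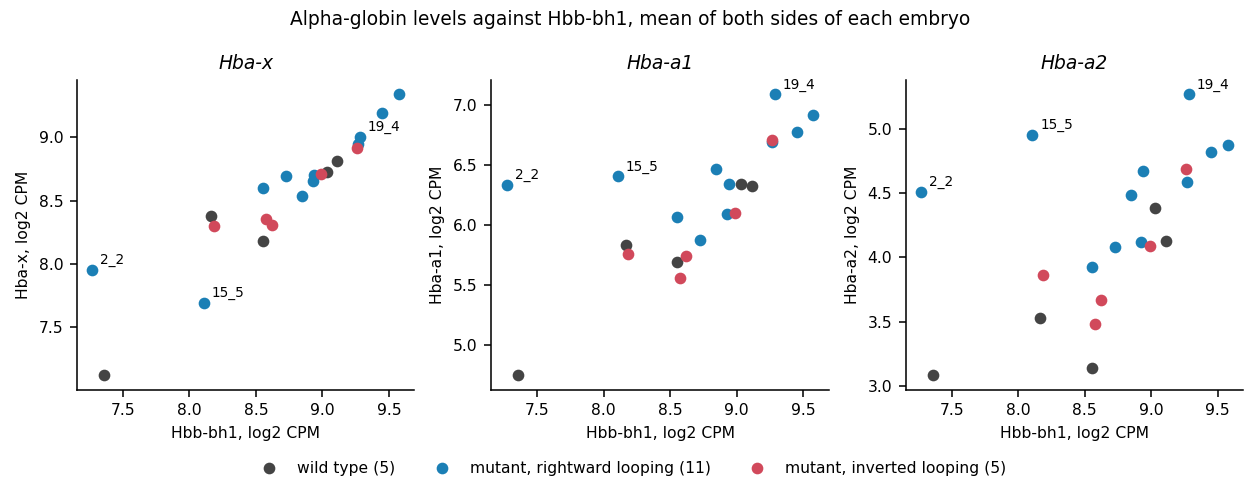
Mean log2 CPM of both sides of each alpha type globin against that of *Hbb-bh1* in the 21 embryos, coloured by group. The labelled embryos 2_2, 15_5 and 19_4 have high *Hba-a1* and *Hba-a2* for their level of *Hbb-bh1*, and r for these 2 genes is 0.68 and 0.51 over all embryos and 0.93 and 0.85 without them, a gain that follows from how they were chosen.

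**Figure D5:**
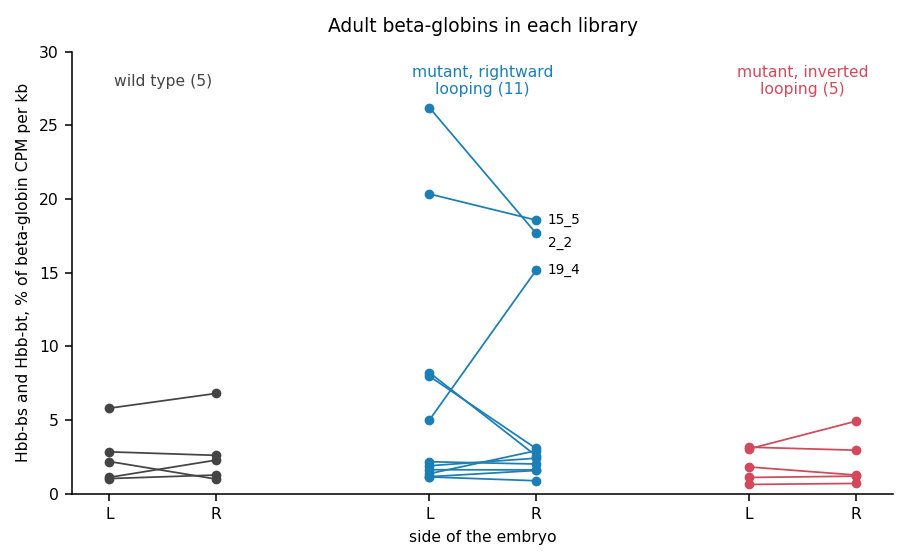
Share of the adult chains *Hbb-bs* and *Hbb-bt* in the CPM per kb of all beta type globins, in the left (L) and right (R) library of each embryo, joined by a line. The labelled rightward mutants 2_2, 15_5 and 19_4 reach 26.2%, 20.3% and 15.2%, while the other libraries stay at or below 8.23%.

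The balance of the embryonic chains was steadier. *Hbb-y* made up between 18.4% and 37.3% of the CPM per kb of both embryonic chains of the beta type, with a median of 28.2%. Its share was lowest on the left of the embryo 22_4, the library with the lowest level of 6 of the 9 genes. The highest shares, 37.3% and 36.3%, were those of the left and right of the embryo 2_2. The ratio of all alpha type to all beta type CPM per kb had a median of 0.57 and ranged from 0.52 to 0.93, with its highest values, 0.93 and 0.85, on the right and left of the embryo 2_2.

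The genes most like the 9 members over the 42 libraries, by Pearson's r with their mean standardized log2 CPM, were mostly genes listed for the red cell. They included *Slc4a1* (r = 0.96), the anion exchanger of the red cell membrane, *Ermap* (0.94), *Trim10* (0.93), *Blvrb* (0.92), *Rhd* (0.92), *Rhag* (0.91), *Gfi1b* (0.91), *Nfe2* (0.90), *Kcnn4* (0.90), *Hemgn* (0.90) and *Slc30a10* (0.89), of which *Kcnn4* and *Slc30a10* were in none of the lists. These values describe genes in the same libraries, share their scaling and carry no test. Of a list of red cell membrane genes, 12 of 16 with at least 1 CPM were among the 50 genes most alike, where the 50th had r = 0.63, as were 7 of 16 other red cell genes, 4 of 15 erythroid regulators, 4 of 12 genes of haem synthesis and 2 of 7 of iron uptake. *Hbb-bs* and *Hbb-bt* were not, at r = 0.19 to 0.24. None of the lists of endothelium, visceral endoderm, heart tube muscle or heart field had a gene among the 50, and their median r was 0.03, 0.31, 0.21 and 0.09.

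Markers of neighbouring tissues were set beside *Hbb-bh1* over the 21 embryos in 6 relations chosen after seeing the data. For the level of both sides, r was 0.63 with heart tube muscle (permutation p adjusted over 6 = 0.0202), 0.54 with visceral endoderm (adjusted permutation p = 0.0479) and 0.21 with endothelium (adjusted permutation p = 0.443). Spearman's rho was lower, at 0.42, 0.33 and 0.20, and passed the threshold for none after adjustment (adjusted permutation p = 0.280, 0.280 and 0.447). Without the 2 embryos farthest from the median of *Hbb-bh1*, r was 0.51, 0.48 and 0.39, and with group means removed 0.64, 0.59 and 0.24. For the ratio of right over left, r was -0.07, 0.36 and -0.28 and rho was -0.17, 0.38 and -0.23 (adjusted permutation p of r = 0.755, 0.214 and 0.339, and of rho = 0.451, 0.280 and 0.447). Removal of group means gave r of 0.07, 0.51 and -0.17 for these ratios. The ratios of *Hbb-bh1* thus did not pass a test against any of these 3 tissues. Gene by gene, log2 ratios were also correlated with the difference between sides in the mean standardized log2 CPM of the 9 members. Here r was 0.36 to 0.61 for the 12 visceral endoderm genes, -0.18 to 0.06 for those of heart tube muscle and -0.50 to 0.14 for those of endothelium. These values describe the same libraries and carry no test.

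Other genes of the red cell were tested from 6 lists of 76 genes, of which *Ahsp*, the chaperone of alpha chains, was not analysed here. Between 71 and 73 of them passed the filter of a given fit, and 1 passed the test in a comparison of sides or of looping groups, which was 1 of 72 tested for right against left in inverted mutants, beside 2.04% of all genes, and 1 of 73 for the asymmetry of inverted against rightward mutants, beside 0.311%. This was *Hk1*, a hexokinase that red cells share with other tissues, which rose on the right of inverted mutants (0.84 ± 0.13, adjusted p by edgeR = 0.021) and differed in asymmetry between inverted and rightward mutants (1.00 ± 0.15, adjusted p by edgeR = 0.0024). In inverted mutants, 49 of 72 tested genes of these lists had negative log2 fold changes of right over left, with a median of -0.09, against a median of -0.01 over all genes. Among haem genes, *Slc25a39* and *Alad* had log2 fold changes of 0.08 and -0.07 in inverted mutants, and among iron uptake genes *Snx3*, *Tfrc* and *Aco1* had 0.16, -0.15 and -0.03. Membrane genes were more varied, with -0.10 for *Epb41*, -0.22 for *Slc4a1* and 0.54 for *Smim1*. Regulators had -0.11 for *Ldb1*, -0.10 for *Klf3* and -0.23 for *Tal1*, other red cell genes had 0.00 for *Slc2a1*, -0.01 for *Prdx2* and -0.15 for *Bnip3l*, and the other globins *Hbb-bs*, *Hbb-bt* and *Hbq1b* had -0.17, -0.16 and -0.09. On the right side, 60 of 72 tested genes of the 6 lists had higher values in rightward mutants than in wild types and 53 of 72 had lower values in inverted than in rightward mutants, with medians of 0.21 and -0.11 against 0.00 and -0.01 over all genes. These comparisons again share the libraries of rightward mutants.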

How the data were processed

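Polyadenylated RNA of the left and right heart field of 21 embryos was sequenced. The deposited values are raw counts per gene, which the authors made by trimming adapters, removing duplicate reads, aligning to GRCm39 with STAR and counting with featureCounts (Subread 2.0.6). Strand and multi-mapping options are not given in the sources used here. Of 56953 Ensembl identifiers, 56310 were named with GENCODE M39, from which transcripts and start sites were also taken.

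Counts were fitted with the quasi-likelihood test of edgeR 4.0.16 in R 4.3.3, with TMM scaling and a filter on low counts (filterByExpr with a minimum count of 5, minimum total of 10, large.n of 50 and minimum proportion of 0.2). Right against left and its difference between groups were fitted with the embryo as a block, and the level of each side with looping group and sex. P-values were adjusted by Benjamini-Hochberg over all genes tested, with a threshold of 0.05. The SE is the absolute log2 fold change divided by the square root of F. CPM were computed with TMM-scaled library totals, and ratios with a prior count of 2. Ratios were also tested by exact sign-flip and permutation tests in Python 3.11.15 (scipy 1.17.1), and correlations with 100000 permutations. The fit was tested on simulated data. Alternatives were DESeq2 1.42.0, no filter, library totals without TMM or without globin counts, a prior count of 0.5, no sex term, no replicate block, and each embryo left out.

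Both sides came from the same embryo, and their deviations from group means over 2000 genes correlated at r = -0.08 to 0.75 (median 0.31). No pair of the 861 pairs of libraries agreed within sampling noise. The labels group mutants by looping, and a finer division of the rightward mutants was not used here. Members and gene lists were chosen with earlier results of these data known. Named genes were the 9 members, up to 3 genes of each red cell list with the highest mean CPM, list genes that passed a test, markers of other tissues, and the 12 genes most alike over the libraries among those with a mean of at least 1 CPM. A few genes that this rule names are not reported here.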

Additional observations from a re-analysis of the deposited data

Results flagged for a closer look

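The left level, the right level and the ratio of each of the 9 genes were searched for an embryo that stands apart, in wild types and in inverted mutants, which gave 54 sets of 5 values. Chance marks about 1 in 20 such sets, and 3 were marked. All 3 were levels in a single library, the right of the wild-type embryo 22_4. *Hba-x* had 160.6 CPM there, against 357 to 402 CPM in the other wild types. *Hba-a1* had 35.2 CPM, against 59.9 to 69.6 CPM, and *Klf1* had 5.49 CPM, against 13.6 to 16.2 CPM.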

How the results depend on the processing

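None of the 9 genes passed in any of 62 fits under other settings, which included the fit with no replicate block, or in any of 189 fits that left out an embryo, so that 0 were called throughout. The lowest adjusted p was 0.467 in the first (library totals without TMM, right against left in inverted mutants) and 0.111 in the second (without the embryo 10_3). None of the 99 log2 fold changes of the 9 genes had passed, and the sign of 39 changed with some embryo left out and of 22 under some other setting, among values of at most 0.26 in size. The change was larger than the SE for *Gata1* on the left in rightward mutants against wild types, which ranged from -0.41 (without 8_1) to 0.29 (without 7_1). With no replicate block, the median of the 9 genes for right against left was -0.39 in inverted mutants and -0.06 in wild types, where 8 of 9 genes were then below 0. The number of all genes called was less stable. With DESeq2 it was 20 in wild types, 32 in rightward mutants and 1755 in inverted mutants for right against left, 456 for the asymmetry of inverted against rightward mutants, 20, 104 and 34 for left levels (rightward mutants against wild types, inverted against rightward mutants, females against males) and 6, 18 and 30 for right levels. With no filter it was 2 in wild types and 942 in inverted mutants, 131 for that asymmetry, and 11 and 8 for left and right levels of rightward mutants against wild types. With no replicate block it was 305 in inverted and 1 in rightward mutants, and 17 for the asymmetry. With each embryo left out, it ranged from 138 (without 32_2) to 446 in inverted mutants, from 2 to 8 in rightward mutants and from 18 (without 18_2) to 192 (without 10_1) for the asymmetry, and for levels from 1 to 11 and 2 to 6 on the left and 0 to 12 and 0 to 4 on the right. Without 2_2, 15_5 and 19_4 (chosen after seeing the data), it was 11 in rightward mutants, 223 for the asymmetry, 1 and 11 for left and 0 and 1 for right levels. With no sex term it was 0 for the right level of inverted against rightward mutants. The cause was not tested.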

Other observations

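The rightward mutant 15_5 also stood apart by genes of blood cells other than red cells, which were chosen after their values were seen. *Runx1*, a transcription factor of definitive blood formation, had 22.5 CPM on its left and 26.9 CPM on its right, against at most 5.70 CPM in any other embryo. *Gata2*, a factor of blood progenitors, had 25.5 and 22.6 CPM, against at most 14.6 CPM. Among myeloid genes, *Fcer1g* had 5.11 and 8.19 CPM, against at most 1.12 CPM, *Tyrobp* had 3.03 and 4.67 CPM, against at most 0.407 CPM, and *Coro1a* had 6.73 and 12.3 CPM, against at most 4.11 CPM. *Cd68* (6.75 and 7.75 CPM), *Ptprc* (0.502 and 1.71 CPM) and the platelet and leukocyte gene *Plek* (2.10 and 3.35 CPM) were also above all other embryos, which reached 4.24, 0.407 and 1.66 CPM. *Myb* had 1.44 and 1.66 CPM and the myeloid gene *Mpo* 0.433 and 0.506 CPM, within the range of the other embryos, and *Csf1r*, *Spi1* and *Lyz2* exceeded that range on the right only, with 3.32, 0.746 and 7.82 CPM, against 2.24, 0.342 and 3.19 CPM on the left. Neither 2_2 nor 19_4, the other embryos with a high share of adult beta chains, shared these levels of *Runx1*, with 0.947 to 2.55 CPM. *Lyz2*, however, had 4.83 CPM on the left of 2_2, more than on the left of 15_5, against at most 2.07 CPM in the embryos other than 2_2, 15_5 and 19_4. These values come from a single embryo and were not tested.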
